A study of Mus musculus with 6 samples.

Results

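Matricellular and elastic fibre genes were followed in mouse hepatic stellate cells across activation, treatment with PRI-724 and age. The set held 10 genes taken by symbol, namely Fn1, Tnc, Postn, Thbs1, Thbs2, Spp1, Sparc, Vcan, Eln and Fbn1, and a gene was read from the probe set that named it alone and had the highest mean signal over the 6 arrays. Of these, 8 had such a probe set, among 22180 genes in all, and all 8 were among the 15526 genes with enough signal to be tested. Vcan passed that filter on its mean over all arrays through the old cells, its young mean of 4.67 lying under the limit of 4.70. Spp1 and Fbn1 were not analysed here.

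Hepatic stellate cells are pericytes of the liver that store vitamin A when quiescent and become contractile, matrix-producing myofibroblasts when activated. The samples labelled PRI-724 were culture-activated cells from old mice (6 to 9 months) or young mice (8 to 11 weeks) given C-82 at 10 µM in DMSO. PRI-724 is converted to C-82, which keeps beta-catenin from binding its coactivator CBP. The samples labelled vehicle were culture-activated cells of both ages without C-82, and activated cells of both kinds had spent more than 20 days on uncoated plastic. Quiescent cells, again of both ages, came from normal liver and had been plated for 12 h. Each sample was a pool of cells from 5 mice, and no genetic alteration is named for any of them. The labels give neither the time of exposure to C-82 nor whether the states of 1 age came from the same pool. Each of the 6 groups had 1 array.

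Matricellular proteins are secreted into the matrix and tune how cells attach, migrate and receive growth factors, rather than bearing load themselves. Fibronectin forms the first fibrillar scaffold of a healing tissue, on which other matrix proteins are laid down. Elastic fibres consist of an elastin core on a sheath of fibrillin microfibrils, and they accumulate in scarred liver.

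Levels are RMA log2 signals as deposited, so that 1 unit is a 2-fold difference, and levels of different genes were not set against each other because probe sets differ in brightness. Sums over marker lists compare the same genes between arrays, and they are weighted towards the brightest probe sets. Differences between states were tested with limma over all 15526 genes, with age and state as additive terms, Benjamini-Hochberg adjustment and a threshold of 0.05. With 1 array for each group, their error is the disagreement between the ages over the 3 states, and for the age difference it is the disagreement between the states. P-values therefore measure the spread between these arrays alone. The 4 comparisons share arrays and share this error. Each SE given with a difference is limma's moderated SE, in which the error of a gene is drawn towards that of genes with similar signal. The n beside it counts the pairs averaged, and the SE does not give the spread of those pairs.

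The young PRI-724 array stood apart. The interquartile range of the tested genes was 1.71 log2 units on it and 2.11 to 2.43 on the other 5 arrays, and the median gene was lower by 0.14 on it than on the young vehicle array. Over all probe sets, by contrast, its median was higher, at 5.34 against 5.05 on the young vehicle array. All 8 markers of quiescent stellate cells were among the tested genes, with summed linear signals of 2607 and 1668 in old and young PRI-724 cells, 2925 and 3171 in old and young vehicle cells and 2651 and 2623 in old and young quiescent cells. In limma 3 of them rose in vehicle relative to quiescent cells (Lrat, Des and Hand2) and 1 fell (Rgs5), and with PRI-724 relative to vehicle 1 fell (Lrat). Other liver cells were represented as well. Summed linear signals of 10 macrophage markers were 1397 and 993 in old and young PRI-724 cells, 6595 and 7495 in old and young vehicle cells and 10410 and 5287 in old and young quiescent cells. The sums of 9 sinusoidal endothelial markers were 2394 and 884 in old and young PRI-724 cells, 10503 and 11989 in old and young vehicle cells and 8810 and 19226 in old and young quiescent cells. Fewer cells of a type and less RNA per cell cannot be told apart in such samples.

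**Figure D1:**
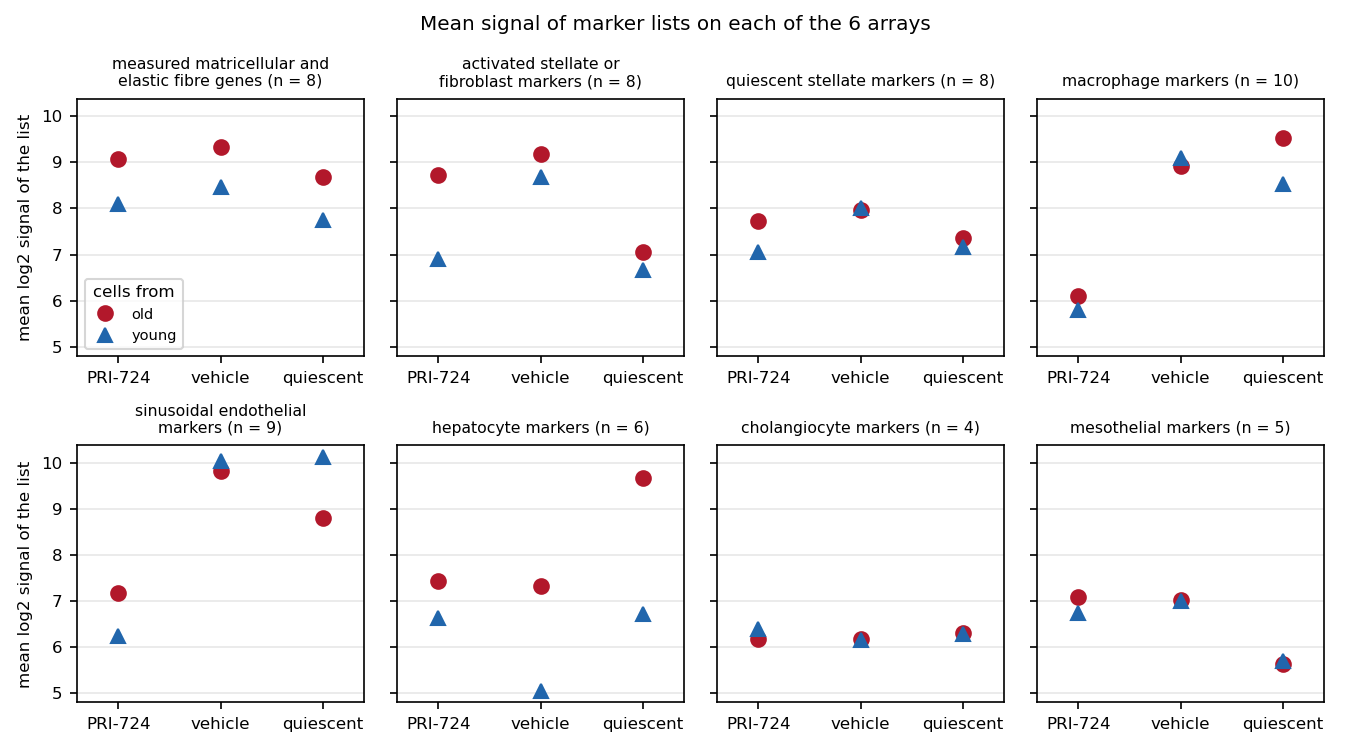
Mean log2 signal of the 8 measured genes and of 7 marker lists on each of the 6 arrays, by state, for old cells and young cells. Macrophage and endothelial markers are lowest on the PRI-724 arrays, and the hepatocyte mean is 7.45 and 6.63 in old and young PRI-724 cells, 7.34 and 5.05 in old and young vehicle cells and 9.66 and 6.71 in old and young quiescent cells.

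RefSeq promoter sequence (GRCm38.p6) was at hand for 5 of the 8 measured genes, namely Tnc, Postn, Thbs2, Sparc and Vcan. Windows of the 250 bases before a start site were searched on both strands for short letter motifs. These were TGANTCA, which is bound by AP-1 factors, CTTTGA, which is bound by the TCF/LEF partners of beta-catenin, and CAGAC, which is bound by SMAD proteins. They further included GGAATG, which is bound by TEAD factors, and the core promoter letters TATAAA. No match overlapped another one in the windows shown. The windows of Sparc and Tnc are given because these genes passed a test in activation or with age, that of Postn because its range over the arrays was the widest, and that of Thbs2 because its profile was the most like that of Fn1. Postn and Thbs2 passed no test. Capitals mark the matches. They lie at chr11:55420081-55420330 on the minus strand for Sparc, at chr4:64046937-64047186 on the minus strand for the start site of Tnc numbered 2, at chr3:54360857-54361106 on the plus strand for the start site of Postn numbered 2, and at chr17:14694263-14694512 on the minus strand for Thbs2.
Sparc: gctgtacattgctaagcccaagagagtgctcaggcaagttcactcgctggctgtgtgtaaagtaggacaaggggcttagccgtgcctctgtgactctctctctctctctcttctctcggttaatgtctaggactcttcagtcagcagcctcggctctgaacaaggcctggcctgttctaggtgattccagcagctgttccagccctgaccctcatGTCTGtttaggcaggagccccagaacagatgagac
Tnc: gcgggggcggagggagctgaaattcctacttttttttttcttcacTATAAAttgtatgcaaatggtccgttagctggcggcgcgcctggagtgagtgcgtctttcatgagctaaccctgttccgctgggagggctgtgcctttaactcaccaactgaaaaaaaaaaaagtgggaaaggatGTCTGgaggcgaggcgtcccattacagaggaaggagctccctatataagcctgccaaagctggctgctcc
Postn: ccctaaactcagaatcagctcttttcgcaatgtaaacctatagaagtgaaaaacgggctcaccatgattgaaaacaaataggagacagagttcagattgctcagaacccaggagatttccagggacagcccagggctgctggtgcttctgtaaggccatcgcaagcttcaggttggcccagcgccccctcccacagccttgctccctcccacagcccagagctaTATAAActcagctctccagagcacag
Thbs2: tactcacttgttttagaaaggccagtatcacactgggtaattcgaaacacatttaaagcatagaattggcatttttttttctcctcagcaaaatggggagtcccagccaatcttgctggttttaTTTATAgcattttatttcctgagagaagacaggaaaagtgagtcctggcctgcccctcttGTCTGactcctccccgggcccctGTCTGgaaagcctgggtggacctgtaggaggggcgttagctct

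The Sparc window held 1 SMAD match, on the reverse strand 35 bases upstream of the start. The Tnc window held a reverse SMAD match 70 bases upstream and a TATA match 205 bases upstream, and the Postn window held a TATA match 26 bases upstream. Windows of the start sites numbered 1 of both genes are not shown and held other matches. For Tnc that window held a TATA match 126 bases upstream and no SMAD match. For Postn it held a forward SMAD match 191 bases upstream and no TATA match. In the Thbs2 window 2 reverse SMAD matches began 66 and 43 bases upstream and a reverse TATA match 126 bases upstream. None of the 5 motifs was found in the Vcan window, and neither the AP-1, the TCF/LEF nor the TEAD letters were found in any window of the 5 genes. Of 32851 windows of the same length, 6.75% held the AP-1 letters, 13.8% TCF/LEF, 42.2% SMAD, 12.6% TEAD and 12.4% TATA. These are matches of letters and were not tested as binding sites.

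The comparison of vehicle cells with quiescent cells asked how the set behaved in culture activation. Sparc and Fn1 rose, and the other 6 genes did not pass the test. Sparc encodes osteonectin, a collagen-binding glycoprotein that loosens cell attachment, and Fn1 encodes fibronectin. The count of 2 of 8 higher stands beside 4.61% of all tested genes, and the count of 0 of 8 lower beside 1.26%. The median difference of the 8 genes was 0.58 on the log2 scale, against 0.04 over all tested genes.

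Sparc (probe set 17262990) had log2 signals of 11.24 and 11.44 in old and young vehicle cells, against 9.97 and 9.30 in old and young quiescent cells. Both vehicle arrays were above both quiescent arrays, a pattern whose share among all tested genes was not counted. The mean difference was 1.71 ± 0.27 (moderated SE, n = 2 pairs), a 3.27-fold rise, with an adjusted p of 0.00927 in limma. In PRI-724 cells Sparc had 11.12 in old and 10.18 in young, so that each PRI-724 array lay between the vehicle and the quiescent array of its age.

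Fn1 (probe set 17224071) had 10.90 and 10.22 in old and young vehicle cells, against 10.14 and 8.58 in old and young quiescent cells. Its groups did not overlap either, young vehicle cells lying just above old quiescent cells. Without the share of all tested genes, this is not read as support. The mean difference was 1.20 ± 0.26 (SE, n = 2 pairs), a 2.3-fold rise, with an adjusted p of 0.028 in limma. The pairs differed in size, with 0.76 in old and 1.64 in young cells. After cyclic loess or quantile normalization of the arrays Fn1 no longer passed the test (limma adjusted p = 0.0614 and 0.0684), and the calls of Fn1 and Sparc both depended on single arrays, as given in the closing section.

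Thbs2, Tnc and Postn also had higher signals in vehicle than in quiescent cells at both ages without passing the test. The share of all tested genes with such a rise at both ages was not counted. Thbs2 encodes thrombospondin-2, an inhibitor of angiogenesis that affects collagen fibril assembly. Its vehicle minus quiescent difference was 0.65 in old and 0.69 in young cells (mean 0.67 ± 0.28 SE, n = 2 pairs, limma adjusted p = 0.185). Tnc encodes tenascin-C, a hexameric glycoprotein of wounds and embryos, and differed by 0.56 in old and 0.41 in young cells (limma adjusted p = 0.244). Postn encodes periostin, which promotes collagen crosslinking and binds integrins, and differed by 1.61 in old and 0.32 in young cells (limma adjusted p = 0.397). With a 2-fold limit and no test, 3 of 8 genes were higher in old vehicle than old quiescent cells (Postn, Sparc and Vcan), against 6.09% of all tested genes. In young cells 2 of 8 were (Fn1 and Sparc), against 10.2%.

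Vcan, Thbs1 and Eln had opposite signs at the 2 ages. Vcan encodes versican, a large proteoglycan that binds hyaluronan, and its vehicle minus quiescent difference was 1.03 in old and -0.054 in young cells. Thbs1 encodes thrombospondin-1, which releases TGF-beta from its latent complex, and differed by -0.11 in old and 0.40 in young cells. Eln encodes tropoelastin, the soluble monomer of elastin, and differed by -0.51 in old and 0.12 in young cells. Their limma adjusted p-values were 0.392 for Vcan, 0.81 for Thbs1 and 0.787 for Eln. The young vehicle and young quiescent signals of Vcan were under the filter limit of 4.70, so the sign of its young difference is uncertain.

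Markers of cell types moved in this comparison too. Of 8 markers of activated stellate cells or fibroblasts, 5 rose, with summed linear signals of 6063 and 4327 in old and young vehicle cells and 1491 and 924 in old and young quiescent cells. Of 6 hepatocyte markers 3 fell, with sums of 1750 and 271 in old and young vehicle cells and 8276 and 1038 in old and young quiescent cells. Of 5 mesothelial markers 2 rose, with sums of 767 and 722 in old and young vehicle cells and 255 and 283 in old and young quiescent cells. Their part in the rise of Sparc and Fn1 was not tested.

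**Figure D2:**
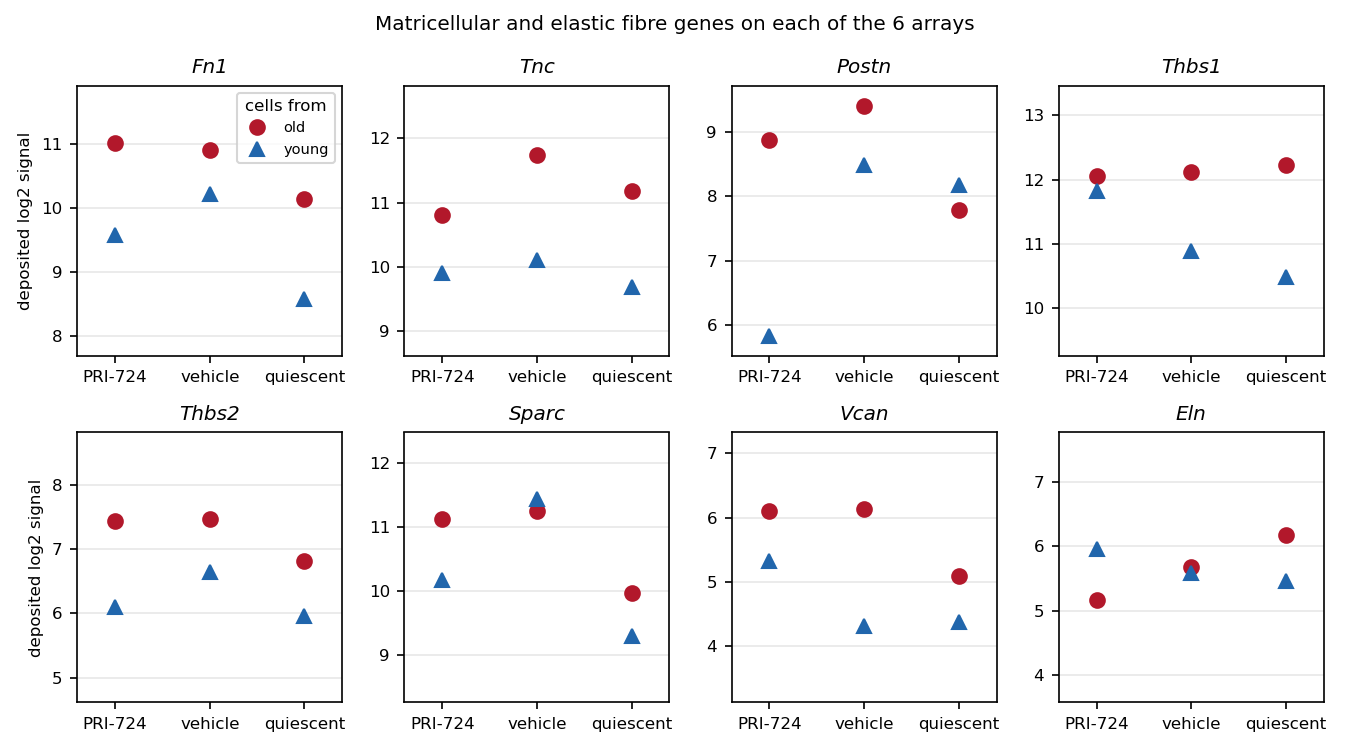
Log2 signal of each of the 8 genes on each of the 6 arrays, by state, with old and young cells marked apart. Sparc and Fn1 are higher on both vehicle arrays than on both quiescent arrays, a pattern not counted over all tested genes. Postn is lowest on the young PRI-724 array at 5.83, and every old array is above every young array for Tnc, Thbs1 and Thbs2.

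The comparison of PRI-724 cells with vehicle cells asked what C-82 did to the set in activated cells. No gene of the set passed the test in limma: 0 of 8 were lower, beside 1.93% of all tested genes, and 0 of 8 higher, beside 0.271%. At an unadjusted p under 0.05 there were 3 of 8, namely Tnc, Postn and Sparc, all with lower means in PRI-724 cells, and 2404 of 15526 genes in all. The median difference of the 8 genes was -0.28 on the log2 scale, against -0.05 over all tested genes. Leaving out either quiescent array changes only the error of this comparison, and the differences stay the same. Calls of Postn and Sparc gained that way are not read as a result. Without the young PRI-724 array the differences of both were far smaller, at -0.20 for Postn and -0.33 for Sparc, and that of Thbs1 was -0.19.

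Postn (probe set 17397575) had 8.88 and 5.83 in old and young PRI-724 cells, 9.40 and 8.49 in old and young vehicle cells and 7.80 and 8.17 in old and young quiescent cells. The young PRI-724 array was the lowest of the 6, below both quiescent arrays. The PRI-724 minus vehicle difference was -0.52 in old and -2.66 in young cells, and the young difference ranked 158 from the lowest among 15526 genes. The mean was -1.59 ± 0.61 (moderated SE, n = 2 pairs, limma adjusted p = 0.253), and this SE does not give the spread of the 2 pairs. Between PRI-724 and quiescent cells Postn differed by 1.09 in old and -2.34 in young cells.

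Sparc differed by -0.12 in old and -1.26 in young cells between PRI-724 and vehicle, with a mean of -0.69 ± 0.27 (SE, n = 2 pairs, limma adjusted p = 0.261). Tnc (probe set 17426365) had 10.80 and 9.91 in old and young PRI-724 cells, 11.74 and 10.11 in old and young vehicle cells and 11.18 and 9.69 in old and young quiescent cells. It was the member with the lowest value in old cells for this comparison, at -0.94, against -0.20 in young cells (mean -0.57 ± 0.23 SE, n = 2 pairs, limma adjusted p = 0.273). Old PRI-724 cells thus had less Tnc signal than old quiescent cells, while young PRI-724 cells had more than young quiescent cells.

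Lower signals with PRI-724 at both ages were seen for 4 of 8 genes (Tnc, Postn, Thbs2 and Sparc), against 35% of all tested genes. The sign of Tnc in young cells turned to 0.01 after cyclic loess and 0.15 after quantile normalization, and that of Thbs2 in old cells to 0.01 after quantile normalization. Fn1 had 11.01 and 9.58 in old and young PRI-724 cells, which is 0.11 above and 0.64 below the vehicle arrays of those ages. With a 2-fold limit and no test, 0 of 8 genes were lower in old PRI-724 than old vehicle cells, against 2.84% of all tested genes. In young cells 2 of 8 were (Postn and Sparc), against 12.3%. After quantile normalization Sparc was lower by less than that limit in young cells, at -0.91.

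Thbs1 and Vcan had the opposite pattern in young cells. Thbs1 (probe set 17374488) had 12.06 and 11.83 in old and young PRI-724 cells, 12.12 and 10.89 in old and young vehicle cells and 12.23 and 10.48 in old and young quiescent cells. The old arrays lay close together, while the young PRI-724 array was above the other young arrays. Vcan (probe set 17294738) had 6.11 and 5.32 in old and young PRI-724 cells, 6.13 and 4.32 in old and young vehicle cells and 5.10 and 4.37 in old and young quiescent cells. The PRI-724 minus vehicle difference in young cells was 0.94 for Thbs1 and 1.003 for Vcan, and in old cells -0.059 for Thbs1 and -0.019 for Vcan. Their means were 0.44 ± 0.29 for Thbs1 and 0.49 ± 0.31 for Vcan (SE, n = 2 pairs), with limma adjusted p-values of 0.499 and 0.48. The young vehicle signal of Vcan was under the filter limit of 4.70, so its young difference and its mean are uncertain.

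Eln (probe set 17453454) had 5.16 and 5.96 in old and young PRI-724 cells, 5.67 and 5.58 in old and young vehicle cells and 6.18 and 5.46 in old and young quiescent cells. Across states its signal ran in opposite orders at the 2 ages, highest in quiescent cells of old mice and highest in PRI-724 cells of young mice. The PRI-724 minus vehicle difference was -0.51 in old and 0.38 in young cells (limma adjusted p = 0.95). Eln had the smallest range over the 6 arrays of the 8 genes, at 1.02 log2 units, and Postn the largest, at 3.57.

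Macrophage and endothelial markers moved strongly in the same comparison. In limma 8 of 10 macrophage markers and 9 of 9 sinusoidal endothelial markers fell with PRI-724, with median differences of -2.96 and -3.30 on the log2 scale and the sums given above. Of 8 markers of activated stellate cells 0 passed the test, 8 had lower means in PRI-724 cells, and 6 had an unadjusted p under 0.05. Their median was -0.47 in old and -1.93 in young cells, with sums of 4374 and 1356 in old and young PRI-724 cells and 6063 and 4327 in old and young vehicle cells. The part of these shifts in the values of Postn, Sparc and Tnc was not tested.

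**Figure D3:**
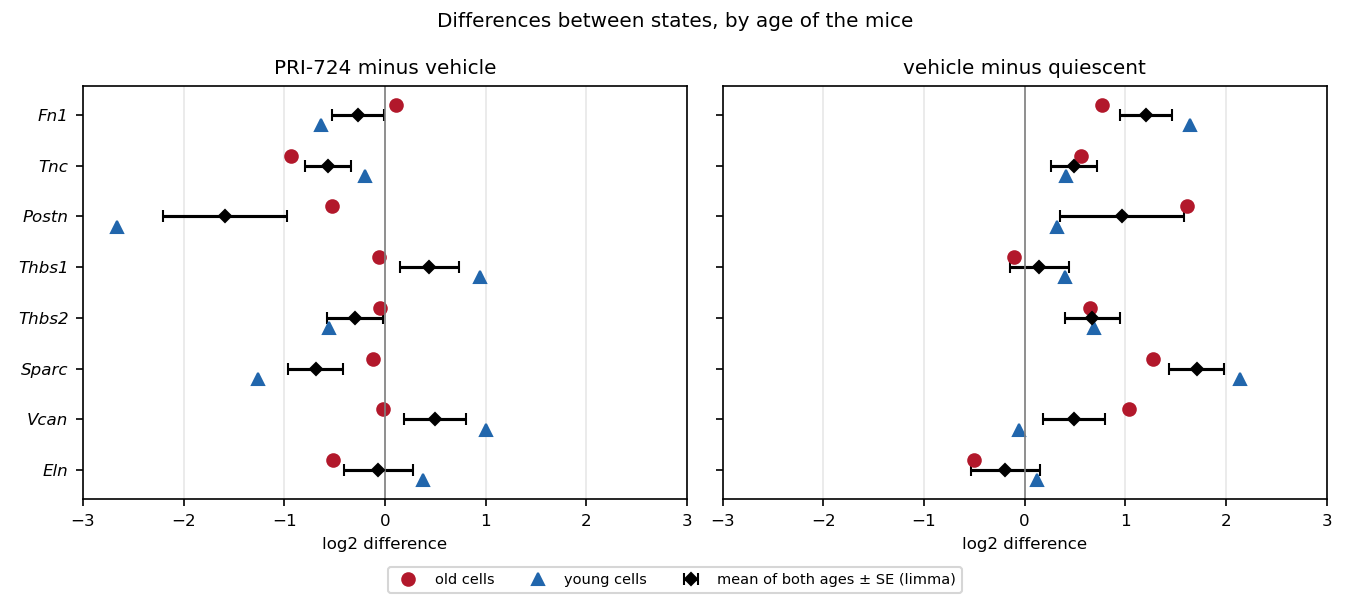
Log2 differences of the 8 genes for PRI-724 minus vehicle (left panel) and vehicle minus quiescent (right panel), with old and young pairs as separate points and the mean of both ages with its SE from limma. Sparc and Fn1 lie right of 0 at both ages in the right panel, and in the left panel young Postn lies at -2.66 while young Thbs1 and Vcan lie near 1. The young vehicle and young quiescent signals of Vcan were under the filter limit, so its young points are uncertain.

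Between PRI-724 and quiescent cells, a comparison that asked how far treated cells stood from the quiescent state, 0 of 8 genes passed the test in limma. The backgrounds are 1.28% of tested genes higher and 2.43% lower, and at an unadjusted p under 0.05 there were 3 of 8 genes (Fn1, Sparc and Vcan), against 2528 of 15526. Sparc was higher by 1.16 in old and 0.88 in young PRI-724 cells (limma adjusted p = 0.0758), and Fn1 by 0.87 in old and 1.0005 in young cells (limma adjusted p = 0.0857). Vcan was higher by 1.01 in old and 0.95 in young PRI-724 cells (limma adjusted p = 0.128). The young quiescent signal of Vcan was under the filter limit, so its young difference is uncertain. Thbs1 differed by -0.17 in old and 1.34 in young cells. Leaving out either vehicle array changes only the error here. Calls of Fn1, Sparc and Vcan gained that way are not read as a result. Without the young PRI-724 array no gene of the whole series passed (limma adjusted p = 0.243 for Fn1, 0.196 for Sparc and 0.406 for Vcan), and without the old one Sparc differed by 0.66 (limma adjusted p = 0.355).

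Old cells were then compared with young cells over the 3 states. Tnc and Fn1 rose with age, and all 8 genes had a mean difference above 0, Eln with 0.01, as did 56% of all tested genes. The count of 2 of 8 higher stands beside 0.264% of all tested genes. A mean difference of at least 1 log2 unit was found for 6 of 8 genes (Fn1, Tnc, Postn, Thbs1, Thbs2 and Vcan), against 1.22% of all tested genes. Vcan passed the signal filter through its old arrays. Its place in this and the other age counts, and in the median over the 8 genes, is therefore not read as support. The count depended on single arrays: it was 4 of 8 without either PRI-724 array (Fn1, Tnc, Thbs1 and Vcan), 4 without either vehicle array (Fn1, Tnc, Postn and Thbs2) and 5 without either quiescent array (Fn1, Tnc, Postn, Thbs2 and Vcan), against 1.21%, 2.38% and 1.26% of all tested genes. Postn moved most, with 0.27 without a PRI-724 array and 1.98 without a quiescent array. The median over the 8 genes was 1.09 on the log2 scale, against 0.04 over all tested genes, and it was 0.92 among PRI-724 cells, 0.87 among vehicle cells and 0.80 among quiescent cells.

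Tnc was higher in old than in young cells by 0.89 with PRI-724, 1.63 with vehicle and 1.49 in quiescent cells. All 3 old arrays were above all 3 young arrays. The mean was 1.34 ± 0.19 (SE, n = 3 pairs, limma adjusted p = 0.0192). Fn1 was higher by 1.43 with PRI-724, 0.68 with vehicle and 1.56 in quiescent cells, with a mean of 1.22 ± 0.21 (SE, n = 3 pairs, limma adjusted p = 0.044). Its groups overlapped, since old quiescent cells had 10.14 and young vehicle cells 10.22.

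Thbs1, Vcan and Thbs2 had means of similar size without passing the test. Thbs1 was higher in old cells by 0.23 with PRI-724, 1.23 with vehicle and 1.75 in quiescent cells (limma adjusted p = 0.105). Vcan was higher by 0.79 with PRI-724, 1.81 with vehicle and 0.72 in quiescent cells (limma adjusted p = 0.116). Its signals in young vehicle and young quiescent cells were under the filter limit of 4.70 and are not shown to be above background, so these differences of Vcan and its place in the age counts are uncertain. Thbs2 (probe set 17341080) had 7.43 and 6.09 in old and young PRI-724 cells, 7.48 and 6.65 in old and young vehicle cells and 6.82 and 5.95 in old and young quiescent cells. Its mean difference was 1.01 ± 0.23 (SE, n = 3 pairs, limma adjusted p = 0.11). The 3 old arrays lay above the 3 young arrays for 3 of 8 genes (Tnc, Thbs1 and Thbs2), against 5.73% of all tested genes. Old cells were higher in each of the 3 states for 5 of 8 genes (Fn1, Tnc, Thbs1, Thbs2 and Vcan), against 21% of all tested genes.

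Postn and Sparc differed in sign between states. Postn was higher in old cells by 3.05 with PRI-724, ranking 6 from the highest among 15526 genes, and by 0.91 with vehicle, and differed by -0.38 in quiescent cells (limma adjusted p = 0.446). Sparc differed by 0.95 with PRI-724, -0.20 with vehicle and 0.67 in quiescent cells (limma adjusted p = 0.504). Eln differed by -0.80 with PRI-724, 0.10 with vehicle and 0.72 in quiescent cells.

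The age calls changed with the settings. After cyclic loess or quantile normalization, and without either PRI-724 array, 0 of 8 genes passed the test, and without either PRI-724 array 0 of all tested genes did. Hepatocyte markers moved with age as well: 6 of 6 had higher means in old cells and 3 of them rose in limma (Alb, Ahsg and Serpina1c), with a median of 0.94 with PRI-724, 2.52 with vehicle and 3.05 in quiescent cells. The summed linear signals were 1975 and 887 in old and young PRI-724 cells, 1750 and 271 in old and young vehicle cells and 8276 and 1038 in old and young quiescent cells. Hepatocytes are a source of plasma fibronectin. All 8 markers of activated stellate cells had higher means in old cells, with a median of 0.92, and 0 of them passed the test (5 at an unadjusted p under 0.05). The part of these shifts in the age differences was not tested.

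**Figure D4:**
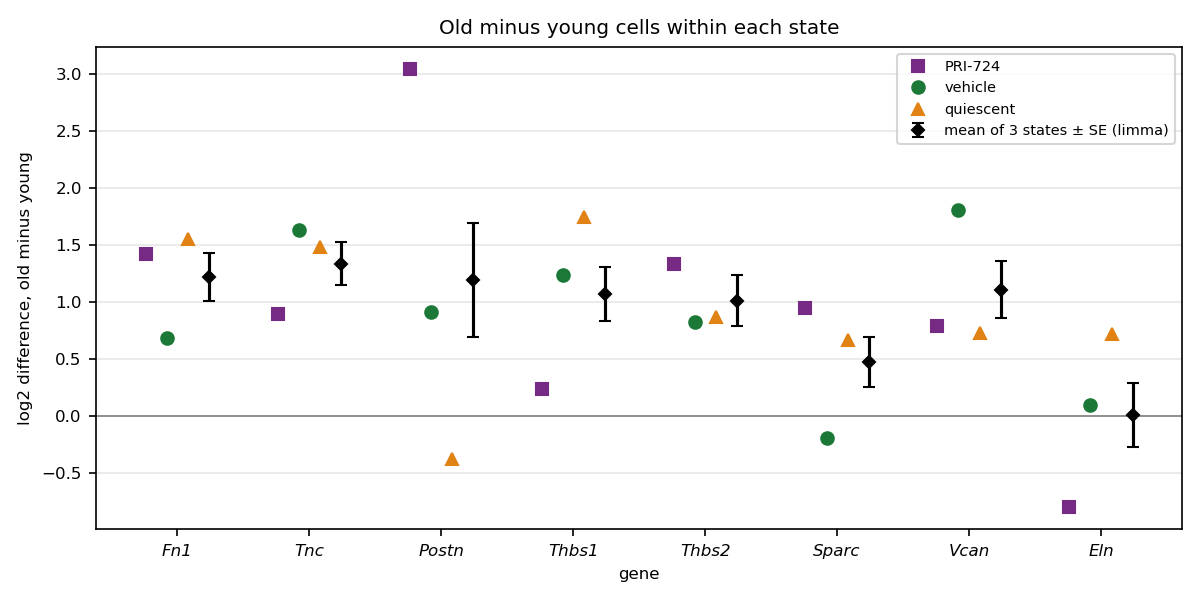
Old minus young log2 difference of each of the 8 genes within PRI-724, vehicle and quiescent cells, with the mean of the 3 states and its SE from limma. Points of Tnc, Fn1, Thbs2, Vcan and Thbs1 all lie above 0, Postn spans -0.38 to 3.05, and Eln spans -0.80 to 0.72.

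The profiles of the 8 genes over the 6 arrays were compared as a description, and points of all genes share the same arrays. Fn1 and Thbs2 had the most similar profiles, with a Pearson r of 0.945 over 6 arrays. Thbs1 and Vcan had r = 0.828, and Tnc was nearest to Thbs2 with r = 0.865. Sparc was nearest to Fn1 with r = 0.847 and Postn to Thbs2 with r = 0.713. Eln stood apart from the rest: its nearest member was Thbs1 with r = 0.343, and it had r = -0.559 with Postn. Among the 5490 named genes with a range of at least 1 log2 unit, the profiles most like Fn1 were those of Zfp809 and Mrpl34 (r = 0.9985 and 0.9957 over 6 arrays). For Sparc they were Prelid1 and Sgsh, for Thbs2 Epha2 and Prss23, and for Vcan Ptgs2 and Anpep. For Tnc they were Adcyap1r1 and Sec24a, for Postn Klhdc3 and Nbeal1, for Thbs1 Zfp933 and Rhpn2, and for Eln Galnt3 and Kcnj10. These genes are the highest of 5490 values of r on 6 points and nothing is read from them.

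Some genes that help to build elastic fibres around elastin changed in activation, a comparison in which Eln did not pass the test. Of 16 tested genes of elastic fibre assembly, 4 rose and 1 fell in vehicle cells relative to quiescent cells in limma, with a median of 0.65. Over all tested genes 4.61% rose and 1.26% fell, with a median of 0.04, and this stands beside the other lists too. With PRI-724 the shares were 0.271% higher and 1.93% lower relative to vehicle, and 1.28% and 2.43% relative to quiescent cells. Those that rose were Lox (4.02 ± 0.69), whose enzyme crosslinks elastin and collagen, the fibulins Fbln2 (1.89 ± 0.41) and Fbln5 (1.85 ± 0.33), of which fibulin-5 guides elastin onto microfibrils, and Emilin1 (1.77 ± 0.37), an elastin interface protein (log2 differences ± SE, n = 2 pairs). Ltbp4, a latent TGF-beta binding protein needed for elastic fibres, fell by 1.83 ± 0.30. Their limma adjusted p-values were 0.013 for Lox, 0.0297 for Fbln2, 0.0155 for Fbln5, 0.0265 for Emilin1 and 0.0107 for Ltbp4. Each lost its call without some single array: Lox without either PRI-724 array, Ltbp4 without the young quiescent or young vehicle array, and Emilin1 without the old quiescent or young vehicle array. Fbln2 lost it without the old quiescent, the old vehicle or either PRI-724 array, and Fbln5 without the young quiescent, the young vehicle or either PRI-724 array. Over 14 alternatives, the differences ranged over 2.37 to 5.67 for Lox, 1.06 to 2.71 for Fbln2, 1.34 to 2.36 for Fbln5, 1.38 to 2.15 for Emilin1 and -2.20 to -1.47 for Ltbp4.

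With PRI-724, 0 of these 16 genes rose and 1 fell relative to vehicle cells, namely Mmrn2, an endothelial member of the EMILIN family (log2 difference -2.29 ± 0.49 SE, n = 2 pairs, limma adjusted p = 0.0465). It kept its call in 6 of 14 alternatives, with a range of -2.90 to -1.69, and lost it without either PRI-724 array, with the lowest 50% of genes left out, with the mean of probe sets, with no trend, with no age block and after either normalization. Emilin1 and Fbln5 had differences of -1.51 and -1.22, and Ltbp4 and Fbln2 of 1.24 and 1.16, none of which passed (limma adjusted p = 0.08, 0.106, 0.0743 and 0.213). Relative to quiescent cells, 2 of the 16 were higher in PRI-724 cells, Fbln2 by 3.05 and Lox by 3.06, and 1 was lower, Mmrn2 with -2.13 (limma adjusted p = 0.00339, 0.0418 and 0.0448). Without the young PRI-724 array none of the 3 passed. The difference between old and young cells was largest for Fbln5 among these genes, at 1.40 ± 0.27 (SE, n = 3 pairs, limma adjusted p = 0.0691).

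Among 6 CCN genes and 15 tested relatives of the 10 genes, 1 gene rose and 2 fell in activation, beside 4.61% and 1.26% of all tested genes. Of 6 CCN genes, 0 passed the test in either direction in activation or with PRI-724 in limma (1 at an unadjusted p under 0.05 in each comparison), with medians of 0.29 and 0.11. Ccn4 had the largest activation difference of them, at 1.07 (limma adjusted p = 0.135). Of 15 tested relatives of the 10 genes, Fstl1, a SPARC-family glycoprotein, rose by 1.56 ± 0.31 in vehicle cells relative to quiescent cells (limma adjusted p = 0.0207). Sparcl1, the closest relative of Sparc, fell by 1.93 ± 0.30, in the opposite direction to Sparc (limma adjusted p = 0.00901). Tgfbi, the relative of Postn, fell by 1.95 ± 0.37 (limma adjusted p = 0.0189, SE with n = 2 pairs throughout). Fstl1 lost its call without the young quiescent, the young vehicle or either PRI-724 array, with a range of 1.06 to 2.05 over 14 alternatives. Sparcl1 kept its call in all 14. With PRI-724, 0 of the 15 passed (1 at an unadjusted p under 0.05). Of 7 genes of hyaluronan synthesis and binding, the partners of versican, 0 passed in either comparison, and the unadjusted count was 0 in activation and 2 with PRI-724.

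Of 18 tested receptors of these proteins, Itgb5 and Lrp1 rose in activation, by 2.02 ± 0.49 and 1.12 ± 0.23 (SE, n = 2 pairs, limma adjusted p = 0.043 and 0.0229). Itgb5 pairs with the alpha-v integrin chain, which binds fibronectin and vitronectin, and Lrp1 takes up thrombospondins. Both lost the call without the young quiescent, the young vehicle or either PRI-724 array, and Lrp1 also without the old quiescent array, with ranges of 0.96 to 3.09 for Itgb5 and 0.94 to 1.24 for Lrp1 over 14 alternatives. Without the young PRI-724 array no gene at all passed between PRI-724 and vehicle cells. With PRI-724, Cd36 and Itga8 fell relative to vehicle cells, with log2 differences of -3.74 ± 0.41 and -2.14 ± 0.30 (SE, n = 2 pairs, limma adjusted p = 0.00248 and 0.00667). Cd36, a thrombospondin receptor, is also abundant in macrophages and endothelial cells, whose markers fell alongside, and Itga8 is an integrin chain of stellate cells that binds fibronectin and tenascin-C.

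Of 10 genes of elastin and matrix turnover, 3 rose in activation (Adamts5 by 2.57, Mmp2 by 1.86 and Ctsk by 1.33) and 3 fell with PRI-724 (log2 differences of -3.50 for Mmp12, -2.999 for Ctss and -1.85 for Adamts5). Adamts5 cleaves versican, Ctsk encodes the elastin-degrading cathepsin K, and Mmp12 and Ctss encode an elastase and a cathepsin best known from macrophages. Their limma adjusted p-values were 0.00783, 0.00882 and 0.0457 in activation and 0.00488, 0.00389 and 0.0383 with PRI-724. Without single arrays, Ctsk lost its activation call in 4 cases (the young quiescent, the young vehicle and either PRI-724 array), with a range of 0.83 to 1.82 over 14 alternatives. Besides the young PRI-724 array, without which no gene passed, Mmp12 lost its PRI-724 call without the old PRI-724 array and Adamts5 without the young vehicle array. After both cyclic loess and quantile normalization, Lox, Fbln2, Fstl1, Itgb5 and Ctsk lost their activation calls, and Mmp12, Adamts5 and Mmrn2 their PRI-724 calls. After quantile normalization but not cyclic loess, Emilin1 and Adamts5 lost their activation calls and Itga8 its PRI-724 call. Of 14 alternatives, the activation calls held in 13 for Adamts5, Mmp2 and Tgfbi, 11 for Ltbp4, 10 for Emilin1, 8 for Lox and Fbln5, 7 for Lrp1 and 6 for Fbln2, Fstl1, Itgb5 and Ctsk. The PRI-724 calls held in 13 for Cd36, 12 for Ctss, 11 for Itga8 and 9 for Mmp12 and Adamts5. In none of the 6 companion lists did a gene pass the test between old and young cells in limma, with 0 to 7 genes a list at an unadjusted p under 0.05 and list medians between -0.04 and 0.36.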

How the data were processed

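The authors deposited log2 signals of 41345 probe sets for 6 arrays, made by RMA in Affymetrix Expression Console, per the submitters' processing notes. The RMA settings were not given in the sources used here. RNA was labelled with the GeneChip WT PLUS kit, per the labels' protocols. The platform table named 1 gene for 23521 probe sets, several for 1814 and none for 16010, and only the first kind was used. A gene was read from its probe set with the highest mean. The lowest 30% of 22180 genes by mean (under 4.70 on the log2 scale) were dropped and 15526 genes tested.

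The test was limma 3.58.1 under R 4.3.3 (age and state in the model, intensity trend, 2 residual and 7.76 prior degrees of freedom), adjusted by Benjamini-Hochberg over all tested genes. The script was tested on simulated data. The number of arrays limits the precision. The 10 genes, the companion lists and the marker lists were chosen with earlier results of these data known. Of each companion list up to 4 genes with the largest absolute mean difference in activation and in PRI-724 minus vehicle were named, and for each of the 10 genes the 2 with the most similar profile, predicted genes being skipped. Emilin1 in activation, the genes named in the other comparisons, and the marker genes Lrat, Des, Hand2, Rgs5, Alb, Ahsg and Serpina1c were named outside this rule, after their values were seen. Alternatives were no filter, dropping the lowest 50%, averaging a gene's probe sets, no trend, cyclic loess, quantile normalization, only the arrays compared, no block, and each array left out. Promoter sequences and updated symbols came from RefSeq (GRCm38.p6). Plots used matplotlib 3.10.9 and pandas 2.3.3 in Python 3.11.15.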

Additional observations from a re-analysis of the deposited data

Results flagged for a closer look

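The genes below had opposite signs in old and young cells under the same contrast of states. Each age had 1 array for each state, so the difference between ages was not tested in any of them, and no search for outlying samples within a group was possible. The contrast of PRI-724 with quiescent cells is the sum of PRI-724 with vehicle and vehicle with quiescent. Its split adds no separate observation where both of those are split the same way.

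Postn had the widest split. Between PRI-724 and quiescent cells it differed by 1.09 in old and -2.34 in young cells on the log2 scale. The same contrast gave -0.38 in old and 0.22 in young cells for Tnc.

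Thbs1 was split in all 3 contrasts. It differed by -0.17 in old and 1.34 in young cells between PRI-724 and quiescent cells, by -0.059 in old and 0.94 in young cells between PRI-724 and vehicle cells, and by -0.11 in old and 0.40 in young cells between vehicle and quiescent cells.

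Eln was likewise split in all 3. It differed by -1.02 in old and 0.50 in young cells between PRI-724 and quiescent cells, by -0.51 in old and 0.38 in young cells between PRI-724 and vehicle cells, and by -0.51 in old and 0.12 in young cells between vehicle and quiescent cells.

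Vcan differed by -0.019 in old and 1.003 in young cells between PRI-724 and vehicle cells, and by 1.03 in old and -0.054 in young cells between vehicle and quiescent cells. After quantile normalization the first old value was 0.05 and the last young value was 0.13, so that neither split held. The young vehicle and young quiescent signals of Vcan were under the filter limit of 4.70, so its young differences are uncertain. Fn1 differed by 0.11 in old and -0.64 in young cells between PRI-724 and vehicle cells.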

How the results depend on the processing

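Over 14 alternatives (13 for age), the sign of a gene of the set turned in 5 of 111 cases in activation, 5 of 111 with PRI-724 against vehicle, 7 of 111 with PRI-724 against quiescent and 5 of 103 for age. The differences stayed the same with no filter, the lowest 50% left out, the mean of probe sets, no trend or no block. Those between states also did with only the arrays compared and without an array of the state not compared. A sign could not turn in such cases, so these counts do not show how stable the signs were. Vcan could not be tested with the lowest 50% left out. No paired analysis was possible because no group has replicates whose numbers could be paired. The pairs of the text are the ages (or states), which are a term of the model and were left out as an alternative.

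In activation the genes higher numbered 338 after cyclic loess, 246 after quantile normalization, 362 with only the arrays compared and 97 with no age block; the genes lower numbered 85 after quantile normalization, 119 with only the arrays compared and 17 with no age block. Of the set, 1 gene was higher after either normalization and 0 in the other 2 settings. Without single arrays, 193 to 973 genes were higher, 115 to 257 lower and 0 to 2 of the set higher. Sparc kept its call in 10 of 14 alternatives and Fn1 in 6. Sparc lost it without the young PRI-724 array (limma adjusted p = 0.0529) or the old one (0.0527), and Fn1 without the young quiescent, the young vehicle or either PRI-724 array. Over the 14 alternatives the differences were 1.21 to 2.21 for Sparc and 0.80 to 1.61 for Fn1. Thbs1 turned to -0.0017 after cyclic loess. Without single arrays, Postn ranged over -0.21 to 2.14 (called without the young quiescent array), Thbs1 over -0.36 to 0.65, Vcan over -0.038 to 1.02, Eln over -0.73 to 0.34 and Ccn1 over -0.027 to 1.03.

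With PRI-724 against vehicle, genes higher numbered 25 with the lowest 50% left out, 3 after cyclic loess, 2 after quantile normalization, 185 with only the arrays compared and 5 with no age block; genes lower numbered 100 after cyclic loess, 82 after quantile normalization, 780 with only the arrays compared and 86 with no age block. Of the set, 2 were lower with only the arrays compared (Postn and Sparc). Without single arrays, 0 to 191 genes were higher and 0 to 777 lower, the 0 being without the young PRI-724 array, with 0 to 1 of the set higher (Thbs1, without the young quiescent array) and 0 to 2 lower (Postn and Sparc without either quiescent array, Sparc without the old vehicle array). Postn ranged over -2.98 to -0.20, Sparc over -1.19 to -0.19, Tnc over -0.90 to -0.24, Fn1 over -0.67 to 0.14, Thbs1 over -0.19 to 1.07, Vcan over -0.035 to 1.02, Eln over -0.67 to 0.54, Ccn2 over -0.69 to 0.28, Ccn4 over -0.64 to 0.90, Tgfbi over -0.18 to 1.25, Fstl1 over -0.97 to 0.019 and Has2 over -0.015 to 0.61.

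With PRI-724 against quiescent, 407 genes were higher and 657 lower with only the arrays compared (3 of the set higher, Fn1, Sparc and Vcan), and 46 and 171 with no age block. Without single arrays, 0 to 406 were higher and 0 to 647 lower, with 0 to 3 of the set higher and 0 to 1 lower (Postn, without the old quiescent array). Tnc ranged over -0.41 to 0.25, Postn over -2.02 to 0.76, Thbs1 over -0.04 to 1.22 and Eln over -0.86 to 0.35.

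For age, 2 genes were higher and 5 lower after cyclic loess, 4 and 8 after quantile normalization, and 0 and 0 with no state block, with 0 of the set called in these 3 settings. Tnc alone was called (1 of the set) with no filter, the lowest 50% left out, the mean of probe sets or no trend. Without single arrays, 0 to 227 genes were higher, 0 to 116 lower and 0 to 5 of the set higher: 0 without either PRI-724 array, 3 (Fn1, Tnc and Thbs1) without either vehicle array and 5 (Fn1, Tnc, Postn, Thbs1 and Vcan) without either quiescent array. Eln turned to -0.002 after quantile normalization and ranged over -0.35 to 0.41 without single arrays. Postn ranged over 0.27 to 1.98 and Thbs1 over 0.73 to 1.49. Over the 13 alternatives Tnc kept its call in 8 (differences 1.19 to 1.56) and Fn1 in 4 (1.05 to 1.49). A lone array left by such an omission is assumed to vary like the others. Calls gained by leaving out an array are therefore not read as support. The causes were not tested. Signal over background was not measured here.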
